A study of Rattus norvegicus with 2 samples.

Results

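Caspases are cysteine proteases that carry out programmed cell death or inflammation, and a small set of proteins holds them back. This account describes 4 caspase genes (Casp1, Casp4, Casp6 and Casp8) and 4 inhibitor genes (Cflar, Xiap, Birc2 and Birc3) in natural killer (NK) cells of rat spleen. The members were taken by name, as every probe set whose platform gene symbol was 1 of these 8 genes. That gave 11 of the 31099 probe sets on the array, of which Casp8, Cflar and Xiap had a pair each and the other 5 genes had 1 each. No probe set listed a member together with another gene.

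The populations were sorted as NKR-P1B+ NK cells and as Ly49s3+ NK cells, each lacking the other receptor. NKR-P1B is an inhibitory and Ly49s3 an activating receptor for ligands on other cells. Both populations were CD3-negative and NKR-P1A-positive cells from spleens of PVG.7b rats aged 8 to 12 weeks, 9 rats in all, and their purity was given as above 90%. No treatment or gene deletion is named for either of them, and the sources used here do not say how the rats' cells were shared out or pooled. Each population has 1 array, so nothing is replicated, no test can be made, and the values describe these 2 arrays.

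Death ligands such as Fas ligand and TRAIL bring the adaptor FADD and caspase-8 together at their receptors, where caspase-8 cuts itself into its active form. Cellular FLIP, the product of Cflar, resembles caspase-8 but lacks its catalytic cysteine, and binds in its place. XIAP blocks active caspases by direct contact, whereas cIAP1 and cIAP2, encoded by Birc2 and Birc3, attach ubiquitin to RIPK1 and its partners and so favour NF-kappaB signalling over death. Caspase-1 and the caspase encoded by Casp4, the counterpart of mouse caspase-11, belong to the inflammatory branch. NK cells set off caspases in their targets through granzymes and death ligands, and they carry caspases and inhibitors of their own.

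Signals of NK cell markers were read first. All 11 on the array were above the floor, a signal of 20.4 below which values were treated as not measured. Their summed signals were 28145 in NKR-P1B+ cells against 24530 in Ly49s3+ cells. Of the 11, 6 were nominally higher in NKR-P1B+ cells and 5 in Ly49s3+ cells. At least 1.5-fold apart were 1 toward NKR-P1B+ cells and 0 toward Ly49s3+ cells, beside 5.06% and 5.72% of all measured genes. That 1 was Gzmb, with 3973 in NKR-P1B+ cells against 2549 in Ly49s3+ cells. Eomes, among the 5 higher in Ly49s3+ cells, had 1237 in NKR-P1B+ cells against 1821 in Ly49s3+ cells. Both genes were named after their values were seen. Klrb1a encodes the sorting marker NKR-P1A and is no independent check. The list held neither receptor that separates the populations, so it cannot tell them apart. Signal is in arbitrary units on a linear scale, and its median over all probe sets was 19.6 in NKR-P1B+ cells against 21.3 in Ly49s3+ cells. Across the probe sets above the floor on both arrays the log2 signals correlated at a Pearson's r of 0.974, a figure over probe sets, which are no independent replicates. Values of poly-A control transcripts differed between the arrays by a median of −0.53 on the log2 scale over 17 probe sets, with a range of −0.97 to 0.21. Hybridisation controls differed by a median of 0.01 over 18. Directions below are relative to the deposited scale, and scaling to the poly-A controls moved the median of all measured probe sets to 0.49.

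All 8 genes had a signal above the floor on both arrays on at least 1 probe set. The Casp8 signal was lower in NKR-P1B+ cells on both of its probe sets, by 1.45-fold and 1.38-fold, but scaled to the poly-A controls these differences were near 0, at −0.01 and 0.06 on the log2 scale. The brighter probe sets of the other 7 genes lay within 1.22-fold, with log2 differences, NKR-P1B+ minus Ly49s3+, between −0.10 and 0.28. None of the 9 probe sets above the floor on both arrays reached 1.5-fold in either direction on the deposited scale. The other 2, of Cflar and Xiap, were below the floor in NKR-P1B+ cells and have only a lower bound, which was under 1.5-fold for each. With the lower floor, set at the 35th percentile, that Cflar probe set had a log2 difference of −0.74 and passed 1.5-fold. Of all 12170 measured probe sets with 1 gene symbol, 4.96% were at least 1.5-fold higher in NKR-P1B+ cells and 5.77% in Ly49s3+ cells, and at these shares 0 of 11 with floored values is not a result about the members. The median log2 difference of the 11 was 0.00, beside −0.02 for all measured probe sets, whose SD was 0.41.

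**Figure D1:**
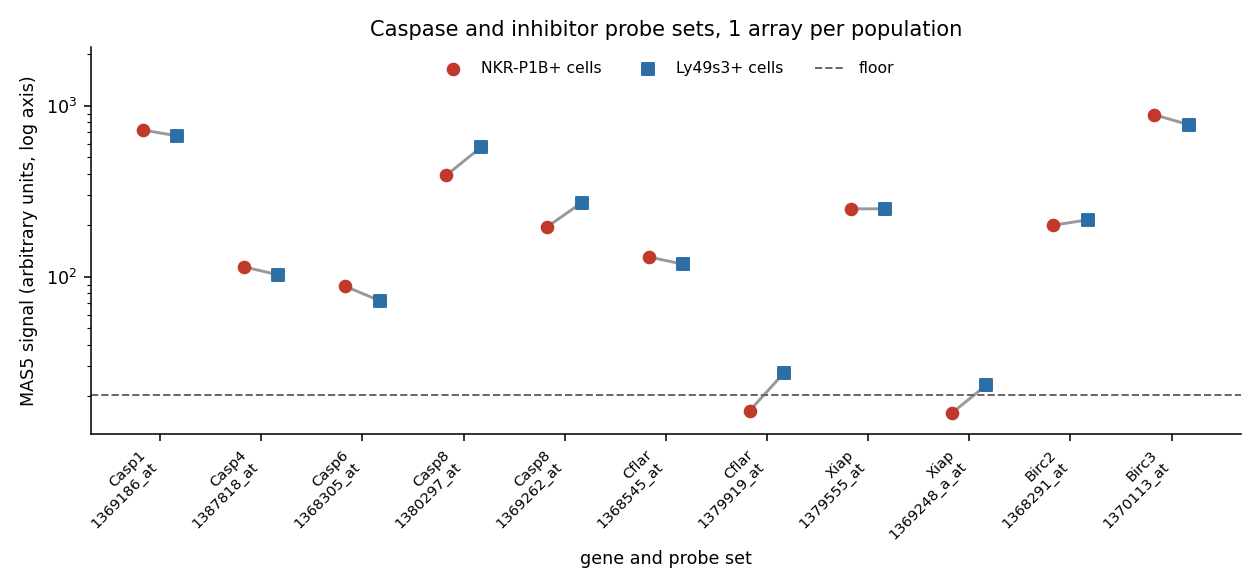
MAS5 signal in arbitrary units on a log axis for each of the 11 caspase and inhibitor probe sets, with NKR-P1B+ cells as circles on the left of each pair and Ly49s3+ cells as squares on the right. Each point is 1 array, there are no error bars because there are no replicates, and the dashed line is the floor of 20.4. Both Casp8 pairs step up toward Ly49s3+ cells, and the dimmer probe sets of Cflar and Xiap lie below the floor in NKR-P1B+ cells.

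Casp8 encodes the initiator caspase of the death receptors, which also restrains necroptosis. Its brighter probe set, 1380297_at, gave a signal of 393 in NKR-P1B+ cells against 571 in Ly49s3+ cells, a log2 difference of −0.54. Its other probe set, 1369262_at, had 197 in NKR-P1B+ cells against 272 in Ly49s3+ cells, a log2 difference of −0.47. The 2 probe sets thus gave the same direction and differed from each other by 0.07. Disagreement between probe sets of the same gene, taken as the SD of their difference over the square root of 2, was 0.21 for mean signals over 256 and 0.27 for those of 64 to 256. The Casp8 differences were 2.58 and 1.71 times these spreads. Among probe sets above the floor on both arrays in the same ranges of signal, 5.17% and 15.2% had a larger difference in either direction. This spread comes from probes on the same RNA and arrays and leaves out variation between rats and sorts. In sorted populations measured in bulk, fewer cells carrying a transcript and less of it per cell cannot be told apart.

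Cflar lies directly beside Casp8 in the RefSeq annotation of rat chromosome 9, with 0 protein-coding genes between them. Its brighter probe set, 1368545_at, gave a signal of 131 in NKR-P1B+ cells against 119 in Ly49s3+ cells, a log2 difference of 0.14, which is within the disagreement of 0.27 between probe sets. The mean log2 difference of Casp8 was 0.64 below it, at −0.50 for Casp8. That gap does not depend on any common scaling of an array. The dimmer Cflar probe set, 1379919_at, had 16.5 in NKR-P1B+ cells, below the floor, and 27.5 in Ly49s3+ cells. It was at least 1.35-fold higher in Ly49s3+ cells, so the Cflar probe sets went opposite ways, and its low signal limits what it shows.

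Casp6 encodes an executioner caspase that cuts nuclear lamins. It gave a signal of 88.1 in NKR-P1B+ cells against 72.5 in Ly49s3+ cells, a log2 difference of 0.28 or 1.22-fold, the largest toward NKR-P1B+ cells among the 11 probe sets on the deposited scale. This was 1.03 times the disagreement between probe sets.

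The inflammatory caspase genes lie next to each other on rat chromosome 8, with Casp12 following Casp4. Casp1, whose product matures interleukin 1 beta and interleukin 18, gave a signal of 722 in NKR-P1B+ cells against 668 in Ly49s3+ cells. Casp4, whose counterpart in the mouse responds to cytosolic lipopolysaccharide, had 114 in NKR-P1B+ cells against 103 in Ly49s3+ cells. Their log2 differences of 0.11 and 0.15 were both within the disagreement between probe sets of the same gene. Casp12 was below the floor on both arrays, at 13.7 in NKR-P1B+ cells against 16.6 in Ly49s3+ cells. Casp1 and Casp4 are abundant in myeloid cells. Of 13 macrophage and monocyte markers on the array 2 were measured, with summed signals of 382 in NKR-P1B+ cells against 158.5 in Ly49s3+ cells, of which Lyz2, which encodes lysozyme, made up 356 in NKR-P1B+ cells against 133 in Ly49s3+ cells. The markers Cd68, used for the depletion, Csf1r and Adgre1 were all below the floor, at 12.9, 14.8 and 0.3 in NKR-P1B+ cells against 8.5, 14.7 and 4.0 in Ly49s3+ cells. The part of such cells in the Casp1 and Casp4 signals was not tested.

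Birc2 and Birc3 are also neighbours on chromosome 8, with 0 protein-coding genes between them. Birc2, which encodes cIAP1, gave a signal of 200.4 in NKR-P1B+ cells against 215.5 in Ly49s3+ cells, a log2 difference of −0.10. Birc3, which encodes cIAP2 and is a known NF-kappaB target, had 887.5 in NKR-P1B+ cells against 776 in Ly49s3+ cells, a log2 difference of 0.19. The paired genes thus had opposite signs on the deposited scale, though not when scaled to the poly-A controls (0.43 for Birc2 and 0.73 for Birc3), and both deposited-scale differences were within the disagreement between probe sets.

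Xiap had the smallest difference. Its brighter probe set, 1379555_at, gave a signal of 250.1 in NKR-P1B+ cells against 249.8 in Ly49s3+ cells, a log2 difference of 0.00. The dimmer one, 1369248_a_at, had 16.0 in NKR-P1B+ cells, below the floor, and 23.3 in Ly49s3+ cells, at least 1.14-fold higher in the Ly49s3+ cells. As with Cflar, the probe set near the floor leaned toward Ly49s3+ cells while the brighter one did not. Of 3086 probe sets above the floor on both arrays with mean signals under 64, 297 were at least 1.5-fold higher in Ly49s3+ cells. A further 194 were this much higher in NKR-P1B+ cells, and the median log2 difference was −0.05. The lean at low signal is thus not particular to Cflar and Xiap.

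Of the 9 probe sets above the floor on both arrays, 6 were nominally higher in NKR-P1B+ cells and 3 in Ly49s3+ cells. In 6 of these 9 the difference was within 1 SD of the disagreement between probe sets, and the 3 beyond it were Casp6 and both of Casp8. The 5 caspase probe sets had a median log2 difference of 0.11 and the 6 inhibitor probe sets −0.05, with the values at the floor included. Casp8 had the lowest values of the 9. With Casp8 set apart, the median of the other 7 probe sets above the floor on both arrays was 0.14. That median is the value of the brighter Cflar probe set, and the mean of Casp8 was 1.56-fold lower. Because Casp8 was set apart on these same values, the gap adds no support of its own.

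**Figure D2:**
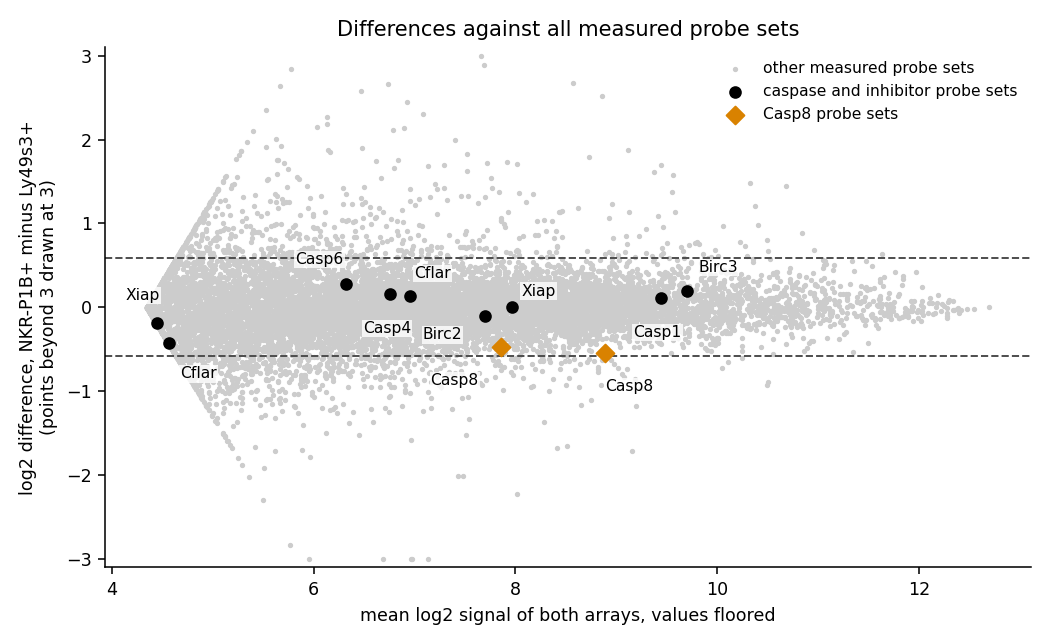
Log2 difference, NKR-P1B+ minus Ly49s3+, against the mean log2 signal of both arrays after flooring, with 1 point per measured probe set, caspase and inhibitor probe sets in black and Casp8 as diamonds. Dashed lines mark 1.5-fold. The 9 labelled probe sets above the floor on both arrays lie between the lines, and the dimmer ones of Cflar and Xiap, at the left edge, are drawn at their lower bounds, with Casp8 at −0.54 and −0.47 nearest to the lower one of those measured on both arrays.

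The surrounding pathway was described with 7 lists of other genes, written with earlier results of these arrays known. Of their 81 entries 57 were on the array and 46 genes were measured. Of the 46, 2 were at least 1.5-fold higher in NKR-P1B+ cells and 1 in Ly49s3+ cells, beside 5.06% and 5.72% of all 9114 measured genes, so their share is near the background. Their median log2 difference was 0.03 against −0.02 for all genes, with 24 genes nominally higher in NKR-P1B+ cells and 22 in Ly49s3+ cells. Of all 9114 measured genes, 4340 were nominally higher in NKR-P1B+ cells and 4753 in Ly49s3+ cells. These are the shares to set beside the counts for each list below. Scaled to the poly-A controls, every list had a positive median, between 0.26 and 0.77, so the lists with negative medians on the deposited scale turned and those with positive medians kept their direction. The list of other IAP genes turned with a change of its genes. Only Birc5, already at 0.15 on the deposited scale, was then measured, and Birc7 was not.

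Other caspases were represented by Casp2 and Casp9. Casp2, which responds to DNA damage and spindle defects, gave a signal of 596 in NKR-P1B+ cells against 671 in Ly49s3+ cells, with log2 differences of −0.17 and −0.32 on its 2 measured probe sets. Casp9, the initiator caspase of the mitochondrial pathway, had 60.2 in NKR-P1B+ cells against 70.7 in Ly49s3+ cells on its measured probe set, a log2 difference of −0.23. Both were within 1.25-fold on every measured probe set and leaned the same way as Casp8, but had 0.36 and 0.30 on the poly-A control scale. In the apoptosome and mitochondrial list 1 of 4 measured genes was nominally higher in NKR-P1B+ cells. The members named for their signal were Aifm1, a mitochondrial flavoprotein, with 488.5 in NKR-P1B+ cells against 583 in Ly49s3+ cells, and Apaf1, which assembles the platform that activates Casp9, with 382 in NKR-P1B+ cells against 384 in Ly49s3+ cells. Diablo and Htra2, whose products bind IAP proteins and relieve their block on caspases, leaned opposite ways and were named after their values were seen. Diablo had 323.5 in NKR-P1B+ cells against 275 in Ly49s3+ cells, and Htra2 had 339 in NKR-P1B+ cells against 394 in Ly49s3+ cells.

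The 16 death receptor adaptors and their regulators had a median log2 difference of 0.09. Of these, 12 were nominally higher in NKR-P1B+ cells, beside 4340 of all 9114 measured genes. Traf1, an adaptor that binds TRAF2 and the cIAPs and is induced by NF-kappaB, was the only one of them at least 1.5-fold apart on the brightest probe set of each gene. In 2 genes of the list another probe set passed 1.5-fold, and both were named after their values were seen. Ripk1, the kinase that the cIAPs modify, had log2 differences of 0.06 on its brightest probe set and 0.82 on another, and the deubiquitinase gene Cyld had 0.14 and −0.86. Traf1 had 1 measured probe set. The Traf1 signal was 79.5 in NKR-P1B+ cells against 40.2 in Ly49s3+ cells, or 1.98-fold higher in the NKR-P1B+ cells. Named for its signal was Tnfaip3, the A20 ubiquitin editor, at 4561 in NKR-P1B+ cells against 4414 in Ly49s3+ cells, followed by its partner Tnip1 at 603 in NKR-P1B+ cells against 586 in Ly49s3+ cells. The adaptor Fadd, which recruits caspase-8, had 36.4 in NKR-P1B+ cells against 30.5 in Ly49s3+ cells, and was named after its values were seen. Casp8ap2, a large nuclear protein named for binding caspase-8, leaned with Casp8, at 167 in NKR-P1B+ cells against 216 in Ly49s3+ cells, and was likewise named after its values were seen. Its 2 probe sets had log2 differences of −0.37 and −0.25.

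Of 11 inflammasome and pyroptosis genes on the array 6 were measured, with a median of 0.07. Ripk2, the kinase of the NOD receptors, gave a signal of 112 in NKR-P1B+ cells against 71.8 in Ly49s3+ cells, 1.56-fold higher in the NKR-P1B+ cells. Txnip, a thioredoxin-binding protein, had 978 in NKR-P1B+ cells against 964 in Ly49s3+ cells. Pycard, the adaptor that joins sensors to caspase-1, had 772 in NKR-P1B+ cells against 834 in Ly49s3+ cells. The caspase-1 substrate gene Il1b was below the floor, at 15.2 in NKR-P1B+ cells against 1.2 in Ly49s3+ cells, whereas Il18, another substrate gene named after its values were seen, had 340 in NKR-P1B+ cells against 327 in Ly49s3+ cells.

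Of 9 measured genes for proteins that caspases cut, 8 were nominally lower in NKR-P1B+ cells on the deposited scale, with a median of −0.27. Of all 9114 measured genes, 4753 were. Among the 8, Bid, named after its values were seen, had −0.22 on its brightest probe set and 0.21 on its other. Pak2 ranged from −0.33 to 0.06 over its 4. On the poly-A control scale 8 of the 9 were nominally higher, with a median of 0.26 beside 0.49 for all measured probe sets. Lmna, which encodes the lamins cut by caspase-6, gave a signal of 87.7 in NKR-P1B+ cells against 150.0 in Ly49s3+ cells, 1.71-fold lower in the NKR-P1B+ cells, and −0.24 on the log2 poly-A control scale. Those named for their signal were Pak2, a kinase activated by caspase cleavage, at 2196 in NKR-P1B+ cells against 2234 in Ly49s3+ cells, and Gsn, the actin-severing gelsolin, at 443 in NKR-P1B+ cells against 580 in Ly49s3+ cells. On their brightest probe sets the other 8 of the 9 genes were within 1.32-fold. Acin1, a chromatin condensation factor named after its values were seen, had 0.06 on its brightest probe set and as low as −0.86 over its 3 measured ones. Among 7 measured serpins and other modulators none reached 1.5-fold, with a median of 0.24. Serpinb9, whose product inhibits granzyme B, had 3364 in NKR-P1B+ cells against 3475 in Ly49s3+ cells, and Bcl10, an adaptor of NF-kappaB signalling, had 735 in NKR-P1B+ cells against 749 in Ly49s3+ cells. The 2 other measured IAP genes had low signals, with Birc5, which encodes the mitotic protein survivin, at 41.3 in NKR-P1B+ cells against 37.1 in Ly49s3+ cells, and Birc7 at 3.8 in NKR-P1B+ cells against 23.0 in Ly49s3+ cells.

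**Figure D3:**
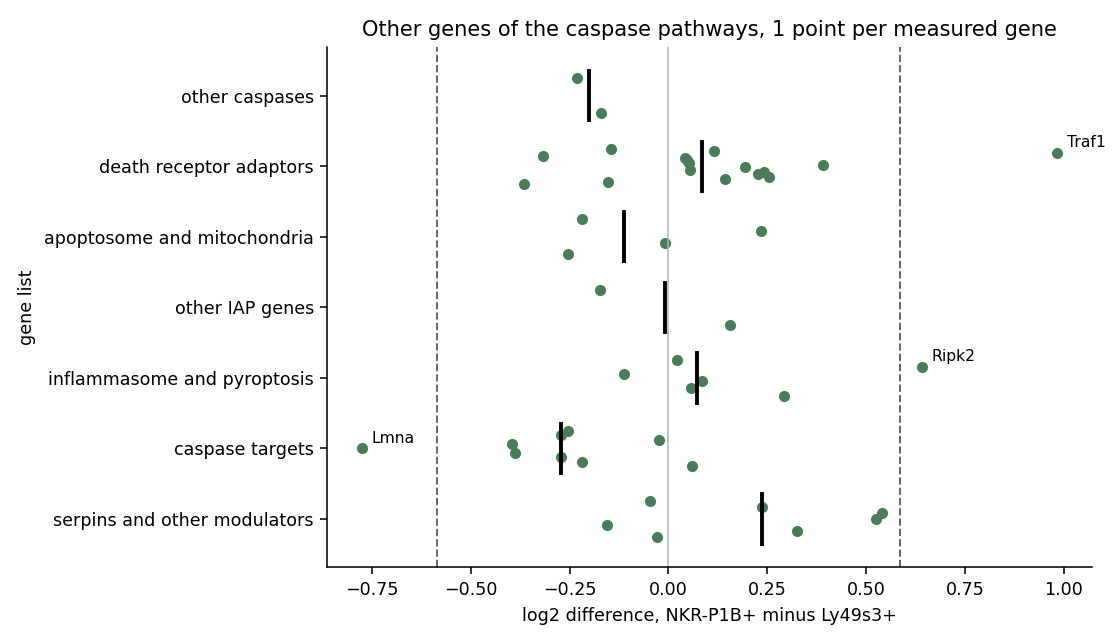
Log2 difference, NKR-P1B+ minus Ly49s3+, for each measured gene of the 7 lists, 1 point per gene on its brightest probe set, with the list median as a vertical bar. Dashed lines mark 1.5-fold. Traf1 and Ripk2 lie beyond the line on the NKR-P1B+ side and Lmna beyond it on the Ly49s3+ side.

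Genes listed as markers of other cell types also differed between the arrays. Whether their signal came from such cells or from the NK cells themselves was not tested. RT1-Da, an MHC class II gene, had 346 in NKR-P1B+ cells against 97.7 in Ly49s3+ cells, and the integrin gene Itgax 2281 in NKR-P1B+ cells against 1716 in Ly49s3+ cells. Over the 6 of 9 antigen-presenting cell markers measured, the sums were 2910 in NKR-P1B+ cells against 2009 in Ly49s3+ cells, most of it Itgax. Of these markers 4 were nominally higher in NKR-P1B+ cells and 2 in Ly49s3+ cells. Those 2 were the class II genes RT1-Ba and RT1-DMa, whose brightest probe sets had log2 differences of −0.28 and −0.22. Their signals were near the floor, at 30.2 and 26.3 in NKR-P1B+ cells against 36.7 and 30.6 in Ly49s3+ cells. Over its 4 measured probe sets RT1-Ba ranged from −0.28 to 0.29. Sums over the 2 of 8 B cell markers measured, Cd22 and Blnk, were 129 in NKR-P1B+ cells against 53.8 in Ly49s3+ cells. T cell markers, of which 8 of 11 were measured, summed to 3253 in NKR-P1B+ cells against 1960 in Ly49s3+ cells, mostly Cd8a, which rat NK cells also carry, at 2151 in NKR-P1B+ cells against 767 in Ly49s3+ cells. The adaptor gene Lat had 594 in NKR-P1B+ cells against 526.5 in Ly49s3+ cells. Of the 8, 4 were nominally higher in NKR-P1B+ cells and 4 in Ly49s3+ cells. At least 1.5-fold apart were 3 and 2 of these, beside 5.06% and 5.72% of all measured genes. The 3 were Cd8a, Cd5 and Cd6. Cd5 had 92.7 in NKR-P1B+ cells against 40.8 in Ly49s3+ cells, and Cd6 had 273 against 179. The 2 were Trat1, at 86.2 in NKR-P1B+ cells against 346 in Ly49s3+ cells, and Cd3g, at 22.3 against 42.9. Cd5, Cd6, Trat1 and Cd3g were named after their values were seen. Cd3e was below the floor on both arrays, at 6.3 in NKR-P1B+ cells against 7.8 in Ly49s3+ cells. Neutrophil and mast cell markers, 2 of 10 measured, ran the other way with sums of 61.5 in NKR-P1B+ cells against 169 in Ly49s3+ cells. They were set by Mcpt10, at 51.5 in NKR-P1B+ cells against 148 in Ly49s3+ cells, with Cpa3 below the floor in NKR-P1B+ cells and at 21.0 in Ly49s3+ cells. Erythroid markers, 4 of 5 measured, summed to 352 in NKR-P1B+ cells against 341 in Ly49s3+ cells. Among them Hbb had 276 in NKR-P1B+ cells against 153 in Ly49s3+ cells, and Hemgn 50.6 in NKR-P1B+ cells against 131 in Ly49s3+ cells. The NK markers named for their signal were the perforin gene Prf1, at 4024 in NKR-P1B+ cells against 3006 in Ly49s3+ cells, and Klrb1a, the gene of NKR-P1A, at 3740 in NKR-P1B+ cells against 3813 in Ly49s3+ cells. The part of other cells in the values of the caspases and inhibitors was not tested.

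Scaling decided where the caspases and inhibitors stood as a group. On the poly-A control scale 5 of the 10 probe sets then measured were at least 1.5-fold higher in NKR-P1B+ cells, along with 37.7% of all measured probe sets, and their median log2 difference was 0.59 beside 0.49 for all. The 5 were those of Casp1, Casp4, Casp6 and Birc3 and the brighter one of Cflar, and Casp8 had −0.01 and 0.06. Under 6 other settings of floor and normalisation the Casp8 differences stayed between −0.55 and −0.41. The changes of floor could not move them, because the Casp8 signals lay above every floor used. Median centring could only move them by an amount common to the array. The mean of Casp8 minus the median of the other members above the floor was −0.64, which no common factor for an array can change. It is the same gap as that to the brighter Cflar probe set, whose value is that median.

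**Figure D4:**
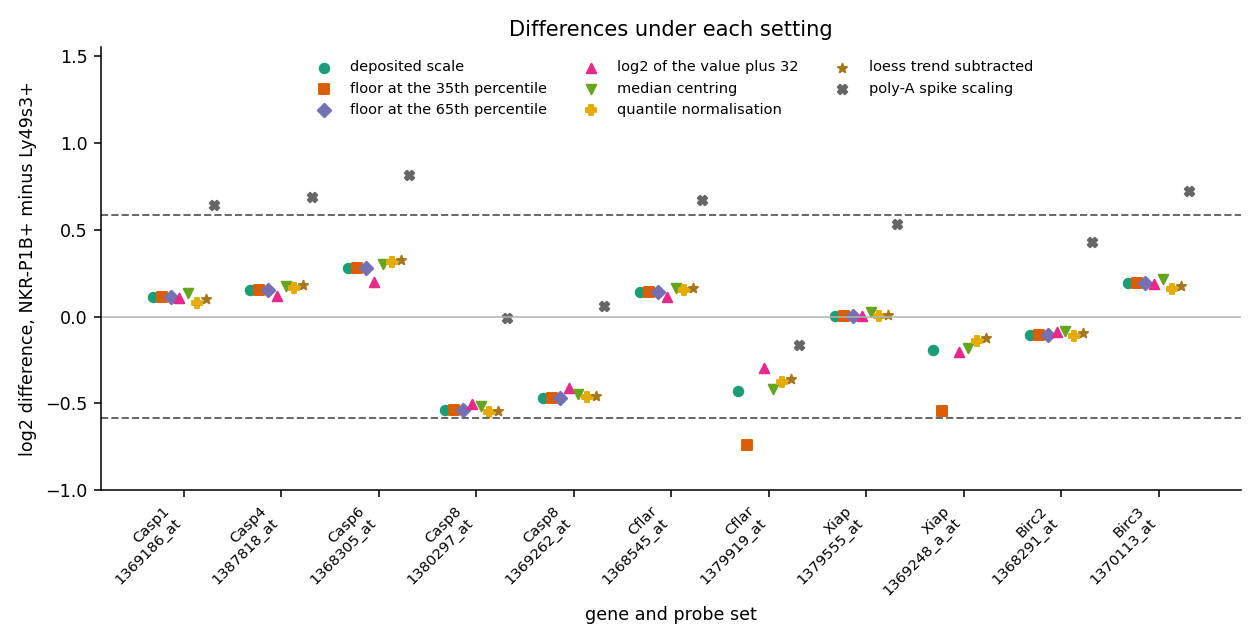
Log2 difference, NKR-P1B+ minus Ly49s3+, of each caspase and inhibitor probe set on the deposited scale and under 7 other settings, with a symbol per setting and dashed lines at 1.5-fold. Poly-A spike scaling moved the probe sets above the floor up together, and the 2 Casp8 probe sets then lay at −0.01 and 0.06.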

How the data were processed

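The authors deposited 1 microarray intensity per probe set and array, made with MAS5 per the submitters' processing notes. Its version, target and detection calls are not stated there. The 2% trimmed mean was 100.04 for each array, so the values are linear, share a scale and were not centred by gene, and the direction follows from the arrays. Per the labels, 3 ug of total RNA was labelled for each array.

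Probe sets were named from the supplied platform annotation. The gene numbers of all 11 member probe sets had the same symbol in RefSeq (GRCr8), used for names and neighbours only. That match does not check what the probes bind. The source sequences of 6 of the 11 were among the RefSeq transcripts of their gene. Those of Casp1, the brighter Casp8, the dimmer Cflar and both Xiap probe sets were not. Values were floored at 20.4, the median of all signals without controls, converted to log2 and subtracted, NKR-P1B+ minus Ly49s3+, and a ratio with a floored value is a bound. A probe set counted as measured if 1 array exceeded the floor, and a list gene was read on its brightest probe set. With 1 array per population no p-value exists, and precision is limited by the number of arrays. Only the flooring and subtraction were tested on simulated data, with planted differences larger than any member difference and in probe sets well above the floor. The other steps were not tested in this way.

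The rule named every member probe set, each list gene at least 1.5-fold apart, the 2 brightest others per list and the 2 brightest per marker list. The members and lists were chosen with earlier results of these data known. There were 0 unused columns of sample values. Tools were Python 3.11.15, numpy 2.4.6, pandas 2.3.3 and statsmodels 0.14.6.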

Additional observations from a re-analysis of the deposited data

How the results depend on the processing

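Of 64 member differences recomputed under 6 settings (floors at the 35th and 65th percentiles, log2 of the value plus 32, median centring, quantile normalisation and a loess trend of span 0.3 subtracted), all 64 moved by less than the disagreement between probe sets. The member median lay between 0.00 and 0.11 over these settings. A change of floor cannot move a probe set that stays above it on both arrays, so for such probe sets that outcome was fixed in advance. The dimmer probe sets of Cflar and Xiap were not measured with the floor at the 65th percentile. With the floor at the 35th percentile the dimmer Xiap probe set went from −0.19 to −0.54, a move close to its limit of 0.35. Scaling to the poly-A controls moved 9 of 10, with a member median of 0.589. By 1.5-fold or more, 5 members then stood higher in NKR-P1B+ cells, as did 20 of 45 list genes, and 0 list genes in Ly49s3+ cells. On that scale 37.7% of all measured probe sets were this much higher in NKR-P1B+ cells and 0.903% in Ly49s3+ cells. Whether equal amounts of these controls were added is not stated in the labels. With the floor at the 35th percentile 1 member, the dimmer Cflar probe set (−0.74), passed 1.5-fold toward Ly49s3+ cells. So did 2 of 50 list genes, beside 9.75% of all measured probe sets. With log2 of the value plus 32 the list counts were 1 of 46 toward NKR-P1B+ cells and 2 toward Ly49s3+ cells. The shares of all measured probe sets were then 2.78% and 2.34%. At 2-fold the list counts were 0 and 0, beside 1.60% and 1.13% of all measured probe sets. Traf1, Lmna and Ripk2, the list genes past 1.5-fold on the deposited scale, were at 1.98-fold, 1.71-fold and 1.56-fold, all under 2-fold. Which genes made the other changes in list counts was not read out. The dimmer probe sets of Cflar and Xiap lie so near the floor that only bounds can be given. No replicate could be left out, with 1 array per population. The ratio of 3' over 5' signal was 11.9 for actin and 2.84 for Gapdh controls in NKR-P1B+ cells, against 13.2 and 2.77 in Ly49s3+ cells. On both arrays the 3' signal was thus the stronger. Its bearing on the member probe sets and on the disagreement between probe sets was not tested.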
